A study of Rattus norvegicus with 48 samples.

Results

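Npas2 (ENSRNOG00000013408) is the gene described here, 1 of the 31998 genes of the deposited table. It was chosen for its level being lower after hindlimb immobilization in both muscles and both rat lines, so it was selected on the comparisons of immobilized with control rats, which are given as a description without a test. The data are RNA sequencing libraries of the plantaris and soleus muscles of 24 female rats aged 14 months, 12 low responders to endurance training (LRT) and 12 high responders (HRT), from generation 19 of 2 lines bred in opposite directions for their gain in treadmill running capacity. In each line 6 rats were immobilized by a cast on 1 hindlimb for 3 days (HI) and 6 separate rats were controls without a cast (CTRL), which gives 8 groups of 6 libraries and 48 libraries in all. All of these rats, controls included, had gone through treadmill training earlier in life. At muscle collection all were anaesthetized and had their muscles removed by the same procedure, on the same day as the rats they are compared with. The methods also describe isoflurane anaesthesia ahead of the casting step. For controls they mention anaesthesia only at muscle removal. Puromycin was injected shortly before muscle collection to measure protein synthesis, which the study compared between immobilized and control rats. There was a single time point, and the clock hour of collection of each rat is not given in the sources used here. A group is a small sample of animals of a selectively bred line, from 1 generation of 1 breeding program, and the libraries are of whole muscle.

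NPAS2 is a transcription factor with a basic helix-loop-helix and PAS domains, a close relative of CLOCK that can take its place as the partner of BMAL1, the product of Arntl. The pair binds E-box sequences and switches on genes such as those of the PER and CRY repressors, which in turn silence the pair, so that levels of clock transcripts rise and fall over the day in most tissues, skeletal muscle included. A second arm works through nuclear receptors that compete for a shared element in genes such as Arntl and Npas2, and the output factors DBP, TEF and HLF oppose NFIL3 at D-boxes. NPAS2 also binds heme.

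The promoters of Npas2 and of 4 other clock genes are shown: Npas2 as the gene described, and for the others a stretch around matches to motifs searched. The match in Bhlhe41 and the D-box match in Per2 are described but not printed. They are from RefSeq on GRCr8, written 5′ to 3′ on the strand of the gene, and the genomic build of the count table is another one, so they serve for sequence only. Capitals mark matches, on either strand, to the E-box CACGTG, its variant CACGTT and the nuclear receptor half-site AGGTCA. The 200 bases before the annotated start of Npas2 (chr9:48959365-48959564, plus strand) lie inside the span of the RefSeq gene, which begins further upstream. The stretches of the other 4 genes likewise lie inside the spans of their RefSeq genes.
Npas2: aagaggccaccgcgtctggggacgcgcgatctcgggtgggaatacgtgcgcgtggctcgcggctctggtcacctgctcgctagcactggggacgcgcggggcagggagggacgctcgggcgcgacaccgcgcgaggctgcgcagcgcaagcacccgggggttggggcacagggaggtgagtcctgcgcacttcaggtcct
Arntl, 27 bases at chr1:176766301-176766327, plus strand: aaggcagaaagtAGGTCAgggacggag
Ciart, 100 bases at chr2:186112251-186112350, minus strand: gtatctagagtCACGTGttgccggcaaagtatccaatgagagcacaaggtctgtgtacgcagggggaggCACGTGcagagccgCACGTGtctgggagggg
Tef, 30 bases at chr7:115206617-115206646, plus strand: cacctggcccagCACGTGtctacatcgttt
Per2, 30 bases at chr9:99497038-99497067, minus strand: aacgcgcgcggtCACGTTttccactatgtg
The window from 250 bases before to 50 after the start of Npas2 held none of the E-box CACGTG, the variant CACGTT, the half-site AGGTCA and the D-box TTATGNAA, searched on both strands, which says only that these letters are not in this window. The E-box occurred in 6.42% of the 33469 promoters of the same length, among them Ciart with 3 copies, Bhlhe41 and Tef. The variant CACGTT occurred in 4.83%, Per2 among them, and the half-site in 16.2%, Arntl among them. The D-box occurred in 3.66%, again with Per2 among them. The windows of Per3, Dbp and Nfil3 held none of the 4. Each match is a description of letters and not of a binding site in these muscles.

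Npas2 was a gene of low abundance that was detected in all 48 libraries, with estimated counts between 12 and 613 out of library totals of 26821698 to 36373621. Levels are given as CPM, counts scaled to a common library size after TMM normalization, and are compared within the gene. The library with 12 counts was LRT plantaris HI replicate 3. The 95% Poisson interval of its rounded count was 6.2 to 21.0, so counting alone leaves that value uncertain by a wide margin. This interval is approximate, since it treats an estimated count as a count of reads. The muscles matched their labels in the markers that could be named: the 4 fast fiber genes Atp2a1, Pvalb, Prkag3 and Ldha summed to 2762 to 10640 CPM in plantaris and 247.2 to 859.6 CPM in soleus, and Fabp3 of slow fibers was higher in soleus than in plantaris in all 4 comparisons.

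In control rats, Npas2 was higher in soleus than in plantaris, and after immobilization its mean was lower in every group than in its controls, by about 3-fold each time. In LRT plantaris the 6 CTRL libraries ran from 2.60 through a median of 4.62 to 5.71 CPM. The 6 HI libraries ran from 0.40 through 1.40 to 3.24 CPM. The groups overlapped through 1 library, HI replicate 5 at 3.24 CPM, which lay above CTRL replicates 1 and 4, and the other 5 HI libraries were below all controls. In HRT plantaris the controls ran from 4.69 through 5.94 to 7.79 CPM, and the HI libraries from 1.12 through 1.65 to 2.73 CPM. In LRT soleus the controls ran from 6.04 through 9.75 to 11.9 CPM and the HI libraries from 2.20 through 2.89 to 4.90 CPM. In HRT soleus the controls ran from 9.91 through 11.98 to 19.1 CPM and the HI libraries from 2.30 through 3.93 to 6.40 CPM. HI and CTRL libraries did not overlap in these 3 comparisons. Over all 16960 genes tested, the share with all HI libraries below all controls was 5.74% in LRT plantaris, 5.4% in HRT plantaris, 2.09% in LRT soleus and 2.31% in HRT soleus. These shares are given beside the values only, since the comparison chose the gene.

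**Figure D1:**
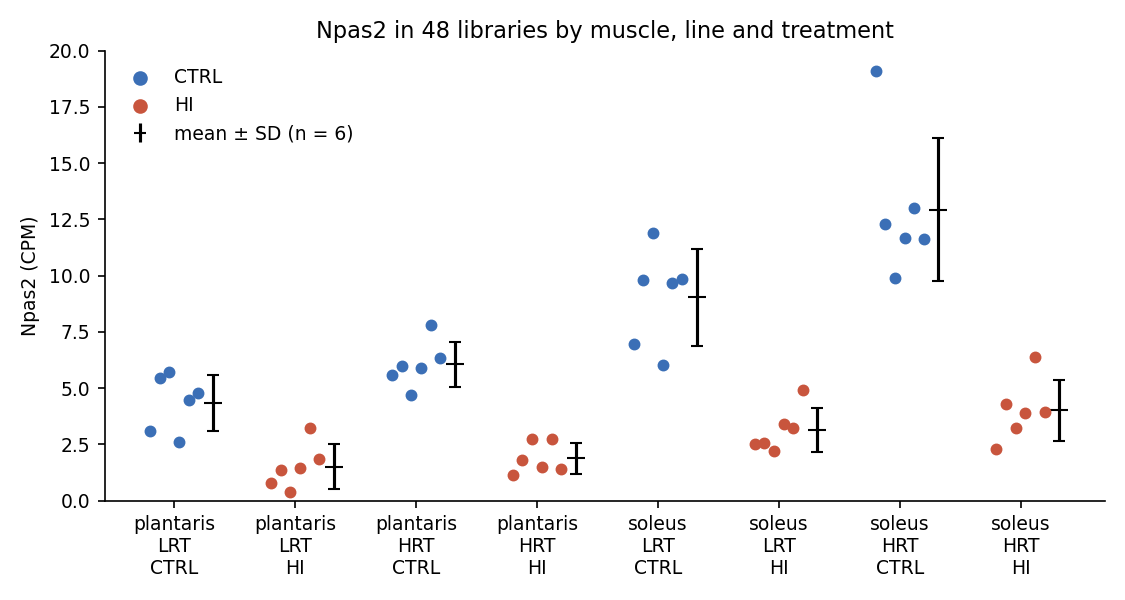
Npas2 in CPM (vertical axis, linear from 0) in each of the 48 libraries, grouped by muscle, line and treatment, with CTRL in blue, HI in red and the mean ± SD of the 6 libraries as a black bar. The HI libraries lie below their controls in 3 of 4 pairs of groups, and in LRT plantaris 1 HI library at 3.24 CPM lies among the controls.

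On the log2 scale of the fit, the difference of HI from CTRL was -1.53 ± 0.29 (SE) in LRT plantaris, -1.70 ± 0.29 in HRT plantaris, -1.52 ± 0.28 in LRT soleus and -1.67 ± 0.27 in HRT soleus, each with 6 libraries against 6. As folds, Npas2 was 2.88, 3.25, 2.87 and 3.18 times lower in HI than in CTRL. Of the 16960 genes, 0.943% had a more negative difference than Npas2 in LRT plantaris, 0.342% in HRT plantaris, 0.413% in LRT soleus and 0.466% in HRT soleus. In whole muscle, fewer cells of a type and less RNA per cell cannot be told apart. Among markers of other cells that could be named, Cd248 of fibroblasts and pericytes was lower in HI in all 4 comparisons, by 1.15 to 1.23 on the log2 scale (adjusted p between 0.00084 and 0.0041, edgeR), and of the 3 named fibroblast genes 3, 2, 1 and 2 were lower in LRT plantaris, HRT plantaris, LRT soleus and HRT soleus, where 13.6%, 5.85%, 6.58% and 8.23% of all genes were. The calls of Cd248 held without any 1 library, while those of Col1a1 were each lost without any 1 of 6 to 8 of the 12 libraries and that of Col3a1 without LRT plantaris HI replicate 3. The median of the summed fibroblast markers was 465.5 CPM in CTRL and 183.7 CPM in HI in LRT plantaris, 597.3 and 268.6 CPM in HRT plantaris, 437.5 and 253.9 CPM in LRT soleus, and 546.6 and 435.3 CPM in HRT soleus. Their ranges in HI and CTRL overlapped in all 4, with 120.3 to 544.8 CPM against 319.9 to 954.1 CPM in LRT plantaris, 140.6 to 471.1 CPM against 365 to 867.9 CPM in HRT plantaris, 103 to 628.5 CPM against 235.4 to 563.6 CPM in LRT soleus, and 297.1 to 672.3 CPM against 233.1 to 2146 CPM in HRT soleus. Fabp3, the slow fiber gene that could be named, had differences of -1.25 (adjusted p = 0.011, edgeR), -0.98 (adjusted p = 0.084), -0.92 (adjusted p = 0.087) and -0.62 (adjusted p = 0.26) in the same order. Of the 4 fast fiber genes 1 passed in each plantaris comparison: Ldha fell by 1.603 in LRT (adjusted p = 0.00027, edgeR), where 13.6% of all genes fell, and by 0.95 in HRT (adjusted p = 0.043, lost without any 1 of 9 of the 12 libraries), where 5.85% did. The other 3 did not pass there, with -0.32 and 0.12 for Atp2a1, -1.04 and -0.39 for Pvalb and 0.08 and 0.98 for Prkag3 in LRT and HRT. Of the 4 fast fiber genes in soleus, 2 rose in LRT, where 7.36% of all genes rose, and 1 in HRT, where 7.95% did. Pvalb rose in LRT and Prkag3 in both lines. The calls of Prkag3 were lost without LRT HI replicate 1 or 3 and without HRT HI replicate 1. The rest did not pass. Pvalb had 1.47 in HRT, and in LRT and HRT Atp2a1 had 0.19 and 0.81 and Ldha -0.54 and 0.04. The 4 hemoglobin genes, which mark red cells, all passed as higher in HI in HRT soleus (median log2 difference 3.02), where 7.95% of all genes did and where their sum reached 10360 CPM in 1 library. In the other comparisons 0 of the 4 passed, with medians of -0.61 in LRT plantaris, 1.48 in HRT plantaris and 0.51 in LRT soleus. The calls of Hbb and Hba-a3 in HRT soleus were lost without HI replicate 5 (adjusted p = 0.062 and 0.064, edgeR), and those of all 4 were lost with each muscle fitted alone (adjusted p between 0.057 and 0.11). Leaving out 1 library lowered the log2 differences there to as little as 1.31 for Hbb, 1.73 for Hba-a1, 1.63 for Hba-a2 and 2.19 for Hba-a3. The part of these cells and fibers in the level of Npas2 was not tested.

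The order of the group means, from high to low, was HRT soleus CTRL at 12.9 ± 3.19 CPM (SD, n = 6), LRT soleus CTRL at 9.05 ± 2.15, HRT plantaris CTRL at 6.05 ± 1.02, LRT plantaris CTRL at 4.35 ± 1.26, HRT soleus HI at 4.02 ± 1.37, LRT soleus HI at 3.13 ± 0.981, HRT plantaris HI at 1.88 ± 0.690 and LRT plantaris HI at 1.52 ± 0.989. Every neighbouring pair of groups in this order overlapped in its libraries, and the ratio of neighbouring means lay between 1.08 and 1.67. The closest neighbours were LRT plantaris CTRL and HRT soleus HI, and within each line the mean of HI soleus was below that of CTRL plantaris. Within each of the 4 combinations of treatment and muscle the HRT mean stood next above the LRT mean.

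Npas2 was lower in plantaris than in soleus in both lines and under both treatments, by a little over 2-fold each time, and this comparison was not used to choose the gene. In LRT controls the log2 difference of plantaris from soleus was -1.07 (95% interval -1.63 to -0.51, adjusted p = 0.0025, edgeR quasi-likelihood test with Benjamini-Hochberg adjustment). In HRT controls it was -1.10 (-1.64 to -0.56, adjusted p = 0.00095). The 6 plantaris libraries lay below all 6 soleus libraries in both lines of control rats, as they did for 10.7% of all genes in LRT and 11% in HRT. In HI rats the difference was -1.08 (-1.74 to -0.42, adjusted p = 0.0099) in LRT and -1.13 (-1.77 to -0.49, adjusted p = 0.0065) in HRT. The HI libraries of both muscles overlapped, with 5 of 6 LRT and 4 of 6 HRT plantaris libraries below all soleus libraries of their line, and 5.52% and 7.81% of all genes had all 6 below. The muscle comparison passed for many genes, 15.6% being lower in plantaris in LRT controls, 19.9% in HRT controls, 14.1% in LRT HI and 17.2% in HRT HI. Without LRT soleus HI replicate 6, the highest soleus value of that group at 4.90 CPM, the difference in LRT HI rats was -0.86 and its adjusted p 0.062 with edgeR. Each rat gave both muscles, and the libraries of a group were treated as independent in these tests.

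Between the lines, Npas2 was lower in LRT than in HRT in all 4 comparisons by means, and none passed the test. The log2 difference of LRT from HRT was -0.48 in control plantaris (95% interval -1.03 to 0.07, adjusted p = 0.54, edgeR), -0.51 in control soleus (-1.04 to 0.03, adjusted p = 0.37), -0.30 in HI plantaris (-0.91 to 0.30, adjusted p = 0.63) and -0.36 in HI soleus (-0.92 to 0.20, adjusted p = 0.43). The libraries of both lines overlapped in each of them. Over all genes, 0.525% passed in control plantaris, 1.45% in control soleus, 2.42% in HI plantaris and 12.2% in HI soleus. The intervals reach from about a 2-fold lower level in LRT to a level slightly above that in HRT, so a difference of modest size could not be told from none with 6 rats a group.

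Differences in the HI response of Npas2 between lines and between muscles are built from the same 4 values that chose the gene, so they are given without a test. The response in LRT minus that in HRT was 0.17 (95% interval -0.64 to 0.99) in plantaris and 0.15 (-0.62 to 0.92) in soleus. The response in plantaris minus that in soleus was -0.0044 (-0.82 to 0.81) in LRT and -0.03 (-0.85 to 0.78) in HRT. These intervals reach from -0.85 to 0.99 on the log2 scale, and they do not show that the responses were the same, since a gene chosen for being lower in all 4 comparisons has responses that are alike in direction by that choice. Over all genes, 0.0295% differed in their response between lines in soleus and 0 did in plantaris, while 2.18% differed in their response between the muscles of LRT rats and 0.0943% between those of HRT rats.

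**Figure D2:**
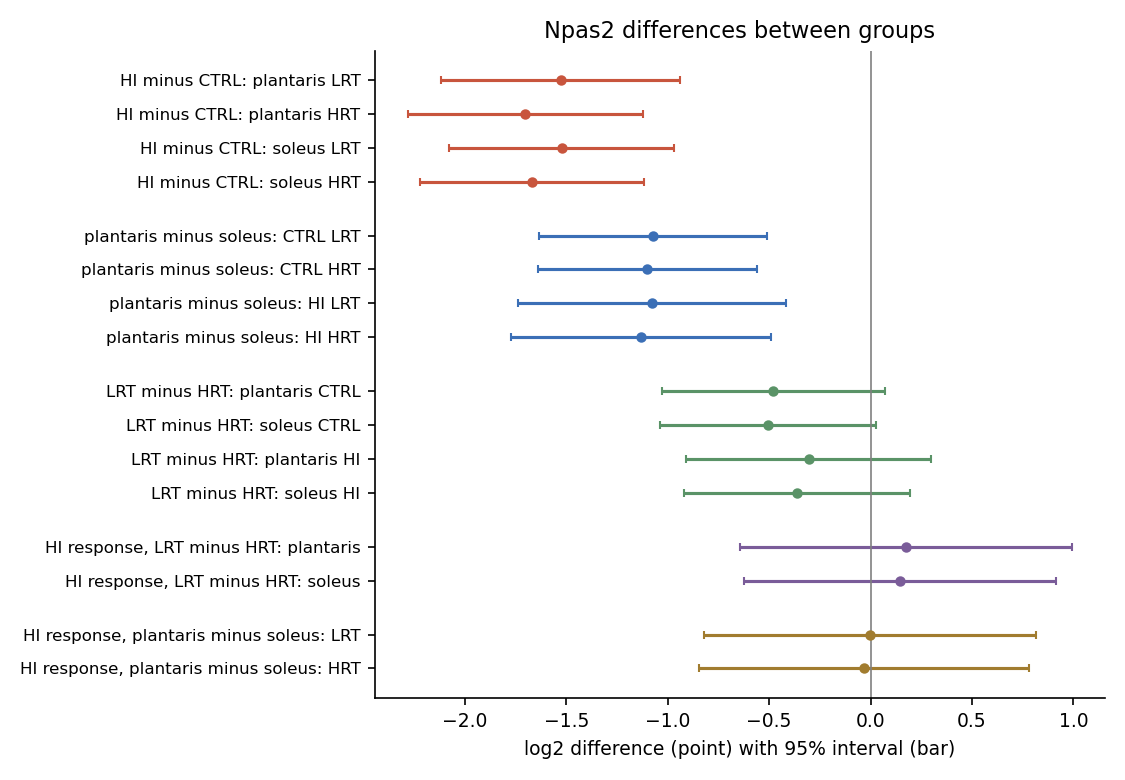
Differences of Npas2 between groups on the log2 scale (horizontal axis) as points with 95% intervals as bars, for HI minus CTRL, plantaris minus soleus, LRT minus HRT, and the differences of the HI response between lines and between muscles. The HI values lie between -1.70 and -1.52 and chose the gene, so their intervals and those of the response differences are no test. The muscle values lie between -1.13 and -1.07, and the intervals of the line differences include 0.

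Libraries of plantaris and soleus carry the same replicate numbers within a line and treatment, and the level of Npas2 within its group was related between libraries of the same number. Over the 24 numbers, the log2 CPM of Npas2 minus the group mean in plantaris and in soleus correlated with Pearson r = 0.615 (p = 0.0014) and Spearman rho = 0.675 (p = 0.0004), both by 2-sided permutation tests of the pairings with 100000 resamples, and this is 1 relation tested. Without the 2 numbers farthest from the median in plantaris, LRT HI replicates 3 and 5, r was 0.691 over 22. Within single groups of 6 numbers, given as a description, r was highest among LRT controls (0.976), followed by immobilized LRT rats (0.674), immobilized HRT rats (0.608) and HRT controls (0.189). The median of r over all genes, computed the same way, was 0.234, and 9.05% of genes had a higher r than Npas2. For the 8 other clock genes named here r ranged from 0.500 in Per2 to 0.893 in Dbp. The labels do not say that a number marks a rat, although the methods state that both muscles of a rat were taken.

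**Figure D3:**
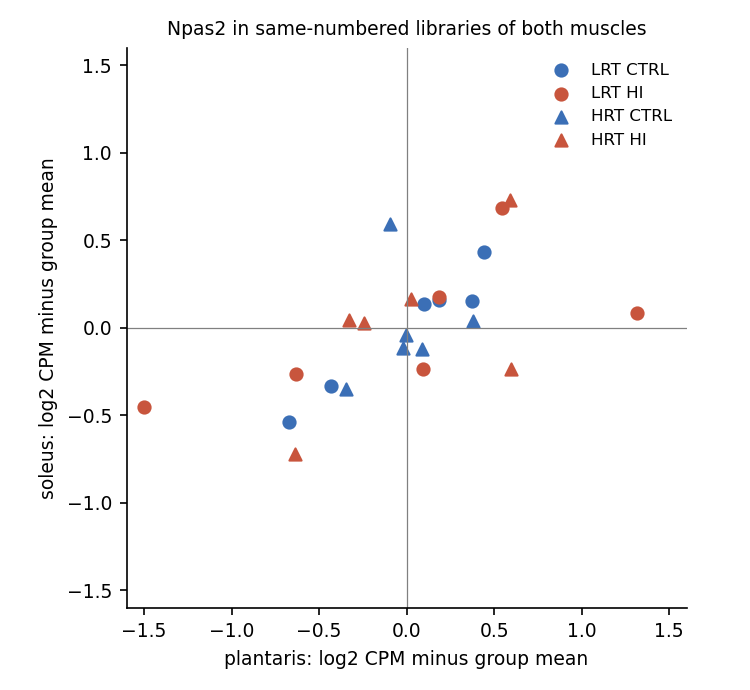
Npas2 in plantaris (horizontal axis) against soleus (vertical axis), each as log2 CPM minus the group mean, for the 24 replicate numbers, with circles for LRT, triangles for HRT, blue for CTRL and red for HI. Numbers that are high in one muscle tend to be high in the other (r = 0.615), and the points farthest out horizontally are LRT HI replicates 3 and 5.

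The other genes of the clock were described from a list of 25, of which 8 could be matched to an identifier. Symbols were available only for genes that the study had called on these same libraries, so the counts are favoured by that choice and are not independent evidence, and Clock, Per1, Cry1, Cry2, Nr1d1, Nr1d2, Hlf and the other bHLH-PAS genes are not analysed here. At an adjusted p under 0.05 (edgeR), 2 rose and 1 fell in LRT plantaris, 4 rose and 1 fell in HRT plantaris, 3 rose and 1 fell in LRT soleus, and 6 rose and 2 fell in HRT soleus. Over all genes the shares that rose and fell were 15.1% and 13.6%, 5.11% and 5.85%, 7.36% and 6.58%, and 7.95% and 8.23% in the same order. The median log2 difference of the 8 genes was 0.34, 0.71, 0.67 and 1.22, against 0.01, 0.02, 0.01 and 0.0097 over all genes. At a change of over 1 on the log2 scale as well, the genes that rose numbered 0, 3, 1 and 5 and those that fell 1, 1, 0 and 2, where all genes gave 2.75% and 2.44%, 0.908% and 0.991%, 1.42% and 0.991%, and 1.46% and 1.47%.

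Arntl, which encodes the partner of NPAS2, was lower in HI in soleus but did not pass the test in plantaris. In HRT soleus it ran from 28.5 through 39.8 to 49.1 CPM in controls and from 8.47 through 16.1 to 20.2 CPM in HI, without overlap, and fell by 1.42 on the log2 scale (SE 0.35, adjusted p = 0.0053, edgeR). In LRT soleus the difference was -0.98 (SE 0.34, adjusted p = 0.047), and the call was lost without any 1 of 8 of the 12 libraries, most of all without LRT soleus CTRL replicate 3 at 74.9 CPM (-0.64, adjusted p = 0.22). In plantaris the values were -0.31 (adjusted p = 0.54) in LRT and -0.57 (adjusted p = 0.31) in HRT, with an HI library above all controls in each. Arntl did not differ between muscles by the test in controls, where the log2 differences were -0.10 in both lines and the adjusted p 0.86 and 0.85.

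Nfil3, the repressor that opposes DBP and TEF, was lower in HI in all 4 comparisons by means and fell by the test in both muscles of HRT rats. In HRT soleus it ran from 18.6 to 53.2 CPM in controls and from 4.67 to 10.8 CPM in HI, and the log2 difference was -2.15 (SE 0.43, adjusted p = 0.00097, edgeR). In HRT plantaris the difference was -1.34 (adjusted p = 0.034), without overlap of the libraries, and the call was lost without any 1 of 7 of the 12 libraries (adjusted p up to 0.11). In LRT the values were -0.80 (adjusted p = 0.15) in plantaris and -0.79 (adjusted p = 0.21) in soleus, and HI replicate 5 had the highest Nfil3 of its group in both muscles, with 49.6 CPM in plantaris and 27.8 CPM in soleus. Of the 6 LRT HI libraries 5 in plantaris and 4 in soleus lay below all controls, while replicate 5 lay above all controls in both muscles. That number was also the highest HI library for Npas2 in LRT plantaris.

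Of the 4 named repressors of the NPAS2 and BMAL1 pair, 1 rose and 1 fell in LRT plantaris, 2 rose in HRT plantaris, 1 rose in LRT soleus and 4 rose in HRT soleus. Over all genes, 15.1% rose and 13.6% fell in LRT plantaris, 5.11% and 5.85% in HRT plantaris, 7.36% and 6.58% in LRT soleus, and 7.95% and 8.23% in HRT soleus. Per2, a period protein gene, rose by 0.65 in LRT plantaris (adjusted p = 0.012, edgeR), 1.24 in HRT plantaris (adjusted p = 0.00018) and 0.78 in HRT soleus (adjusted p = 0.0073), and its difference in LRT soleus was 0.20 (adjusted p = 0.55). The call in LRT plantaris was lost without HI replicate 4 (0.51, adjusted p = 0.052). Per3 rose in both soleus groups, by 0.75 (adjusted p = 0.019, and 0.055 without HI replicate 3) in LRT rats and by 1.14 (adjusted p = 0.00067) in HRT rats, and in plantaris its differences of 0.31 (LRT, adjusted p = 0.31) and 0.58 (HRT, adjusted p = 0.08) did not pass. Ciart, which represses the pair and holds 3 E-boxes in the promoter shown above, rose in HRT from 0.964 to 2.16 CPM in control plantaris to 3.26 to 13.9 CPM in HI, a difference of 2.04 (SE 0.46, adjusted p = 0.0048), and by 2.08 in soleus. Its differences in LRT were 0.42 (adjusted p = 0.51) and 0.92 (adjusted p = 0.18). Bhlhe41, which binds E-boxes as a repressor, was the exception in direction: it fell by 1.24 in LRT plantaris (SE 0.32, adjusted p = 0.0038), rose by 1.78 in HRT soleus (SE 0.34, adjusted p = 0.00055), and was 0.05 (adjusted p = 0.95) in HRT plantaris and 0.58 (adjusted p = 0.25) in LRT soleus.

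The output genes Dbp and Tef rose together in 3 comparisons. Dbp rose by 1.27 in HRT plantaris (adjusted p = 0.011, edgeR), 1.00 in LRT soleus (adjusted p = 0.037) and 1.63 in HRT soleus (adjusted p = 0.00099), and the call in LRT soleus was lost without any 1 of 6 of the 12 libraries (0.81 and adjusted p = 0.093 without HI replicate 2). Tef rose in all 4, by 0.48 (adjusted p = 0.03), 0.84 (adjusted p = 0.0021), 1.21 (SE 0.17, adjusted p = 3e-05) and 1.30 (adjusted p = 3.1e-06) in LRT plantaris, HRT plantaris, LRT soleus and HRT soleus. The call in LRT plantaris was lost without any 1 of 7 of the 12 libraries (0.38 and adjusted p = 0.11 without HI replicate 2).

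**Figure D4:**
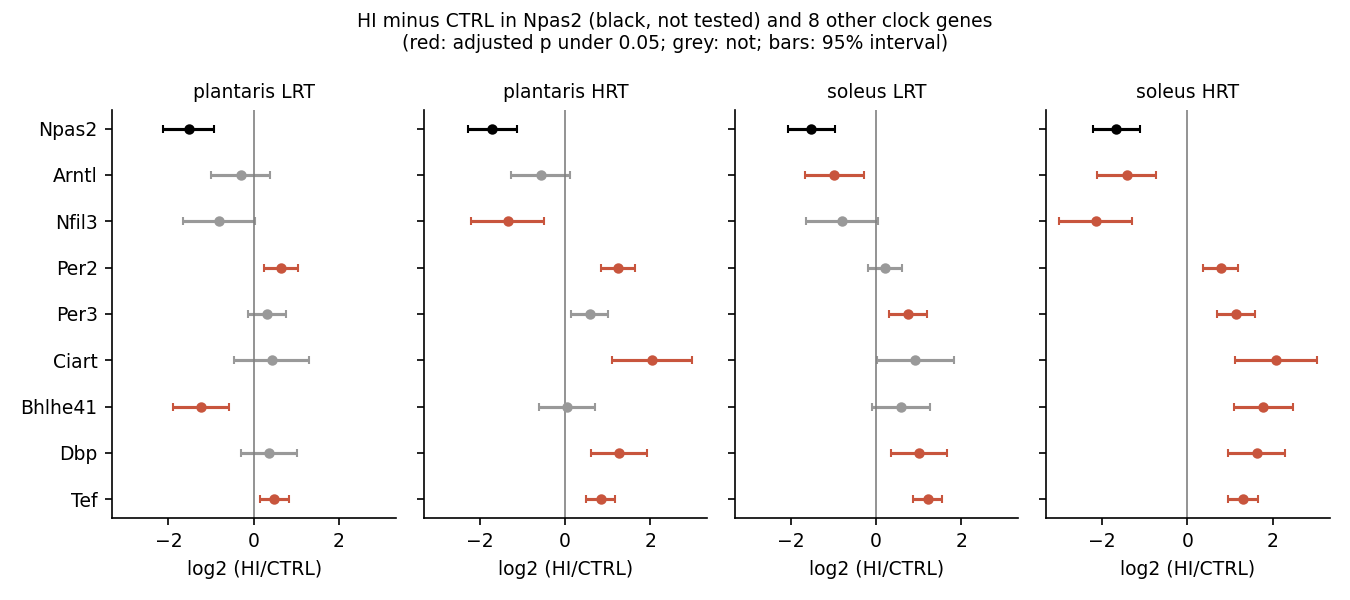
Log2 differences of HI from CTRL (horizontal axis, points with 95% intervals) for Npas2 in black, without a test, and the 8 other clock genes, 1 panel for each muscle and line, in red where the adjusted p was under 0.05 and in grey where it was not. In HRT soleus all 8 passed, with Arntl and Nfil3 on the side of Npas2 and the other 6 on the opposite side.

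Between muscles in control rats, Npas2 ran against the output gene Tef, which was higher in plantaris than in soleus by 1.21 in LRT (adjusted p = 4e-07, edgeR) and 0.99 in HRT (adjusted p = 1e-05). Bhlhe41 was also higher in plantaris, by 1.82 in both lines (adjusted p = 3.2e-05 and 3.3e-05). The differences of the other 6 clock genes between the control muscles did not pass in either line. Over all genes 17% were higher in plantaris in LRT controls and 18.9% in HRT controls. In HI rats Tef was higher in plantaris in HRT, by 0.53 (adjusted p = 0.029, lost with library totals at 0.086 and without any 1 of 4 of the 12 libraries), where 17% of all genes were higher, and 0 of the 8 passed in LRT, where 15.8% were. Arntl, Per2, Per3, Dbp, Nfil3 and Ciart thus gave no call in a comparison in which Npas2 differed 2.10-fold and 2.14-fold.

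Outside the clock, the genes of heme handling were described because NPAS2 binds heme. Alas1, which encodes the first enzyme of heme synthesis outside red cells, was lower in HI in plantaris by 1.06 in LRT (adjusted p = 6e-05, edgeR) and 1.05 in HRT (adjusted p = 0.00053), and by 0.56 in HRT soleus (adjusted p = 0.034, lost without any 1 of 7 of the 12 libraries), and its difference in LRT soleus was -0.45 (adjusted p = 0.097). Alas2, which encodes the enzyme of the same step in red cell precursors, rose in HRT soleus by 2.86 (adjusted p = 0.0018, edgeR), where the hemoglobin genes were also higher, and by 1.64 (adjusted p = 0.011) without HI replicate 5. Its differences were -0.43 (adjusted p = 0.62) in LRT plantaris, 1.62 (adjusted p = 0.063) in HRT plantaris and 0.54 (adjusted p = 0.57) in LRT soleus. Hmox1, which encodes the heme-degrading enzyme, was higher in HI by 2.70 (adjusted p = 3.7e-05) and 1.95 (adjusted p = 0.0056) in plantaris of LRT and HRT and did not pass in soleus, where the differences were 0.83 (adjusted p = 0.21) and 0.85 (adjusted p = 0.19). Its call in HRT plantaris was lost without HI replicate 4 (0.87, adjusted p = 0.12). Of 8 genes known as outputs of the muscle clock, 4 could be named: Ppargc1a and Slc2a4 fell and Ucp3 rose in LRT plantaris, where 13.6% of all genes fell and 15.1% rose, Myod1 rose in HRT soleus, where 7.95% rose, and the remaining differences did not pass. The call of Ucp3 was lost without LRT plantaris HI replicate 5 (0.79, adjusted p = 0.24) or CTRL replicate 1, 4 or 6.

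The pattern of Npas2 over the 48 libraries was most like that of genes whose group means, too, were lower in HI in all 4 comparisons and higher in control soleus than in control plantaris. Likeness was measured as Pearson r of log2 CPM, the points sharing muscle, line and treatment groups, and no test was made. Among genes with a symbol, r was highest for Traf5 (0.889), an adaptor of tumor necrosis factor receptors, AC139927.1 (0.888), Itgb1bp2 (0.887), which encodes the muscle protein melusin, Trim72 (0.886), which acts in membrane repair, Mamdc2 (0.881) and the hyaluronidase gene Hyal1 (0.879). Traf5 went from 14.3 ± 1.66 CPM (SD, n = 6) in HRT soleus CTRL to 3.80 ± 0.870 CPM in LRT plantaris HI, the groups at the ends of the order of Npas2. Over all genes the highest r was 0.922, for ENSRNOG00000015886, and the lowest was -0.908, for ENSRNOG00000023541.

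The named gene most opposed to Npas2 was the clock output gene Tef (r = -0.870), followed by Gpank1 (-0.866), Spryd7 (-0.865), the autophagy gene Map1lc3b (-0.864), Ripk2 (-0.860) and the polyamine acetyltransferase gene Sat1 (-0.860). Tef was highest in LRT plantaris HI at 227.7 ± 45.4 CPM and lowest in HRT soleus CTRL at 59.5 ± 7.31 CPM, the reverse of the ends for Npas2. The other clock genes had r of 0.698 for Nfil3, 0.445 for Arntl, -0.348 for Bhlhe41, -0.456 for Per3, -0.522 for Dbp, -0.622 for Per2 and -0.679 for Ciart.

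Taken within groups, as deviations from the 8 group means, the likeness was weaker and mostly to other genes. Among genes with a symbol, the highest values were 0.733 for St8sia5, 0.725 for AC139927.1, 0.703 for Hyal1 and 0.699 for Palldl1, and the lowest were -0.747 for LOC102552920, -0.732 for the quinone reductase gene Nqo1, -0.699 for Zwint and -0.691 for the proteasome subunit gene Psmb3. Over all genes they were 0.762 for ENSRNOG00000015911 and -0.763 for ENSRNOG00000056853. Of the clock genes Nfil3 had 0.534 and Tef -0.418, and the other 6 lay between -0.257 for Per3 and 0.193 for Arntl. Itgb1bp2 and Trim72 kept 0.660 and 0.653, while Traf5 had 0.332. For Arntl, the partner of Npas2, this r was thus far below the 0.445 over all libraries.

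**Figure D5:**
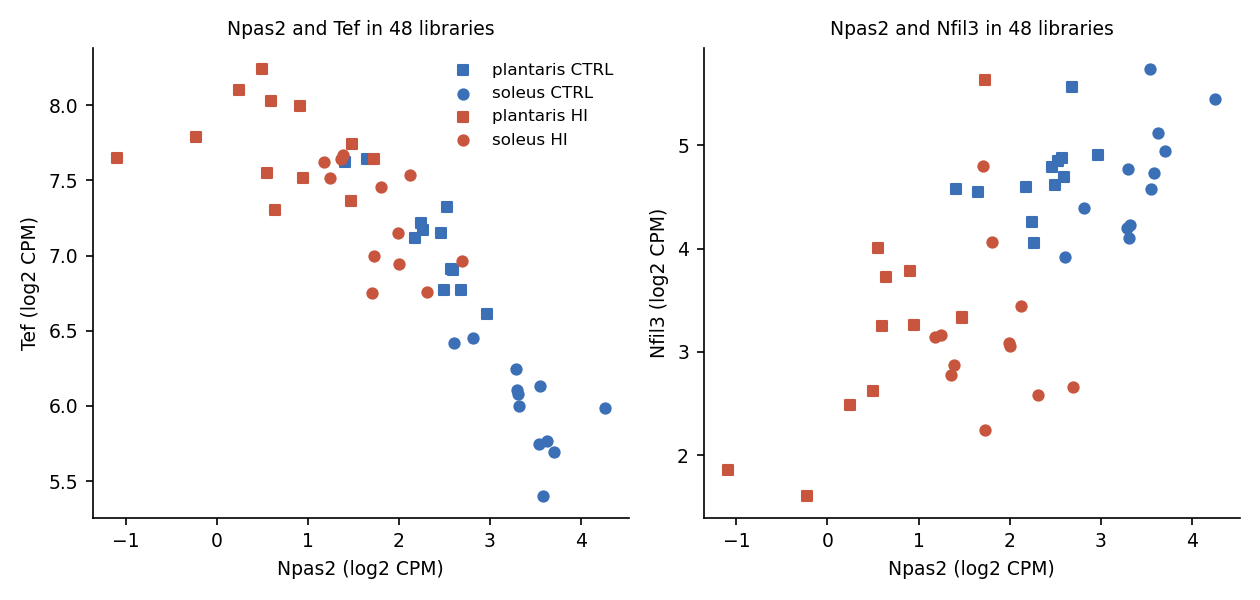
Npas2 (horizontal axes) against Tef (left) and Nfil3 (right) in log2 CPM over the 48 libraries, with squares for plantaris, circles for soleus, blue for CTRL and red for HI. Tef falls as Npas2 rises (r = -0.870) and Nfil3 rises with it (r = 0.698), in points that share groups.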

How the data were processed

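RNA of plantaris and soleus from 24 rats was sequenced in 48 libraries, grouped by the deposited labels, with 6 per group and none left out. Per gene and library the authors gave an estimated count, made with Salmon 0.9.1 against Ensembl Rnor_6.0 cDNA and non-coding RNA, length-scaled and summed per gene with tximport. They carry no normalization between libraries, and 66.0% of them are not whole. Library totals were 26821698 to 36373621 counts (median 30438420). RNA integrity numbers (RIN) were 7.8 to 8.6. The paper gives values above 8.0 for every sample, but by the labels 7 libraries were under 8.0. Most of these 7 were from soleus of HI rats, so low RIN was not spread evenly over muscle and treatment. Each group's libraries come from separate rats per the methods. Intervals on counts treat the rounded estimates as counts of reads and cover counting error only. The labels and the methods name different library kits, so whether strand was used is uncertain, and reads of a gene and an overlapping antisense gene may not be told apart.

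Counts were rounded and fitted with the edgeR 4.0.16 quasi-likelihood model in R 4.3.3, with TMM, filterByExpr (16960 genes tested), the 8 groups and RIN. Adjusted p-values are Benjamini-Hochberg over all tested genes. A clock gene was counted at an adjusted p under 0.05, and also at an absolute log2 difference over 1. Log2 CPM used a prior count of 2. Alternatives were DESeq2 1.42.0 (test and size factors), limma-voom 3.58.1, library totals, no RIN, no filter, each muscle alone, the replicate number, or line, treatment and number together, as a block and leaving out each library. The chain was tested on simulated data. Symbols came from the study's own gene tables for 1143 of 31998 identifiers (3.6%), and of the 47357 RefSeq (GRCr8) entries 0 carry an Ensembl identifier, so promoters were matched by gene ID for the 9 clock genes named. The authors' fold changes and p-values in those tables were not used.

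Npas2 and the gene lists were chosen with earlier results of these data known. The named genes are Npas2, every clock list gene with an identifier except 1 that is not reported here, the 6 named genes with the highest and the 6 with the lowest r with Npas2 over 48 libraries, the 4 at each end by deviations from group means, and at most 2 identifiers without a symbol in each direction. Heme and muscle output genes come from other lists of the same kind, and marker lists for endothelium, macrophages, satellite cells, Schwann cells and adipocytes had 0 members with an identifier. Tables and permutation tests were made in Python 3.11.15 (pandas 2.3.3, scipy 1.17.1, numpy 2.4.6) and plots in matplotlib 3.10.9.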

Additional observations from a re-analysis of the deposited data

Results flagged for a closer look

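Single libraries far from the other 5 of their group were looked for in Npas2 and the 8 other clock genes, in 72 groups of 6, by Dixon's test. For independent and normally distributed values chance flags about 1 in 20 groups. The test was run on CPM without a log scale, and the same libraries recur over the genes, so that rate is only a rough guide here. The test picked 10 values. For Npas2 it picked HRT soleus CTRL replicate 1 at 19.1 CPM, against 13.02 CPM for the next library. The other values were 51.66 CPM of Arntl in HRT plantaris HI replicate 4, 74.93 CPM of Arntl and 10.16 CPM of Per3 in LRT soleus CTRL replicate 3, 42.57 CPM of Per3 in LRT soleus HI replicate 5, 14.06 CPM of Ciart and 89.01 CPM of Dbp in LRT plantaris HI replicate 2, 10.15 CPM of Ciart in LRT soleus HI replicate 2, 8.3 CPM of Bhlhe41 in LRT soleus CTRL replicate 4 and 49.59 CPM of Nfil3 in LRT plantaris HI replicate 5.

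LRT HI replicate 2 had the highest Ciart of its group in both muscles, and its Npas2 was 1.35 CPM in plantaris and 2.56 CPM in soleus. LRT HI replicate 5, high in Npas2 (3.24 CPM) and Nfil3 in plantaris, also had 59.12 CPM of Arntl there.

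The HI response of Bhlhe41 differed between muscles in LRT rats, where plantaris minus soleus was -1.82 on the log2 scale (adjusted p = 0.036, edgeR), with a fall in plantaris. In HRT rats the same difference was -1.73 (adjusted p = 0.13). Leaving out single libraries moved the LRT value between -2.07 and -1.62 and its adjusted p between 0.016 and 0.1. The corresponding difference for Npas2 was -0.0044, without a test.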

How the results depend on the processing

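The difference of Npas2 between HI and CTRL stayed negative under all alternatives run, between -1.93 and -1.33 in LRT plantaris, -1.83 and -1.56 in HRT plantaris, -1.69 and -1.39 in LRT soleus and -1.83 and -1.52 in HRT soleus. Library totals in place of TMM moved the median of all genes to 0.25, 0.17, 0.15 and 0.07 in the same order, and Npas2 to -1.34, -1.56, -1.39 and -1.62. The muscle difference kept its call under each alternative except 1: in LRT HI rats leaving out single libraries gave -1.51 to -0.86, and the call was lost without soleus replicate 6 (adjusted p = 0.062). The line differences stayed negative and were not called. Without single libraries they ran from -0.57 to -0.36 in control plantaris and from -0.61 to -0.37 in control soleus. In HI rats they ran from -0.68 to -0.11 in plantaris and from -0.53 to -0.17 in soleus. The differences of the HI response of Npas2, given without a test, changed sign. Leaving out single libraries gave -0.20 to 0.365 between lines in plantaris (negative without LRT plantaris HI replicate 5), -0.00011 to 0.32 in soleus, and -0.43 to 0.18 (LRT) and -0.20 to 0.10 (HRT) between muscles. Between muscles library totals gave 0.045 (LRT) and 0.060 (HRT), and the fit without RIN gave 0.011 (LRT). The cause of these was not tested.

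With the replicate number as a block, the difference between muscles in the HI response was 0.019 in HRT, the muscle differences of Npas2 were -1.08, -1.14, -1.15 and -1.12, and no call of Npas2 changed. With line, treatment and number together as a block they were -1.09, -1.08, -1.20 and -1.13. Of the 24 same-numbered pairs of libraries, 22 correlated above 0.1 across genes (range -0.05 to 0.392), and 22 plantaris libraries correlated best with their own number within the group, which is a hint from the data and not from the design.

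Among the other clock genes, the counts of calls with a change over 1 depended on the setting. Without that threshold 2 rose in LRT plantaris, and 3 rose and 1 fell in LRT soleus. With library totals, without RIN and with each muscle alone 2 rose in LRT soleus. Under limma-voom and under the block 2 fell in LRT plantaris and 1 in LRT soleus. Under DESeq2, which gave no p-value for Nfil3, 0 fell in HRT plantaris and 1 in HRT soleus, and with each muscle alone 0 fell in HRT plantaris. Leaving out single libraries gave 1 to 2 falls in LRT plantaris, 0 to 1 in HRT plantaris and 0 to 2 in LRT soleus, and 1 to 3 rises in LRT soleus. The 54 called differences of single genes other than Npas2 (clock genes between HI and CTRL, between muscles and, for Bhlhe41, in the HI response, and heme, muscle output and marker genes between HI and CTRL) kept their call in 973 of 1089 recomputations and reversed in 0. Of the 12 named genes most like or opposed to Npas2, 6 stayed in place with Spearman, 3 with deviations and 11 with DESeq2 size factors. The correlation between muscles was 0.455 on CPM (permutation p = 0.025). At this depth the lowest library held 12 counts of Npas2.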
